A study of Mus musculus with 39 samples.

Results

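Adult liver of 4L mice was compared with wild-type (WT) liver on 9 of the 39 arrays of the series. The 9 arrays were chosen by genotype, tissue and age in the sample labels, with no measured value used. The 4L mice are V394L/V394L homozygotes, which carry a point mutation in both copies of the gene for acid beta-glucosidase (GCase), and they gave 2 liver arrays each at 12, 18 and 28 weeks of age. The wild-type mice gave 3 liver arrays, all at 28 weeks, so that only the 28-week 4L arrays had controls of the same age. Every array held RNA pooled from 3 mice, and the spread between arrays is therefore a spread between pools rather than between single animals. The 4L mice were bred on a mix of C57BL/6J and 129SvEvBrd, whereas the WT mice also carried FVB, so the mutation and the strain cannot be told apart in this comparison. A second line, 9V/null (D409V/null, a point mutation over a null allele), had the same strain mix as the WT mice and gave 6 adult liver arrays at the same 3 ages. The sex of the mice is not given in the sources used here.

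GCase is the lysosomal enzyme that splits glucosylceramide into glucose and ceramide. Its loss causes Gaucher disease, in which macrophages, among them the Kupffer cells of the liver, fill with the undigested lipid. Hepatocytes make up most of the liver's mass, synthesise cholesterol and fatty acids, and clear drugs and steroids with cytochrome P450 enzymes, conjugating enzymes and transporters. A change in the signal of a marker gene in whole liver can come from the number of cells of that type or from the RNA in each cell, and these cannot be told apart on these arrays.

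The hepatocyte markers were bright on all 9 arrays, with albumin (Alb) at 174500 to 225600 signal units in 4L liver and 95770 to 112900 in WT liver. Several bright genes stood higher on the 4L arrays. The Actb control probe set read 116350.1 to 149894.9 in 4L and 53552.7 to 71083.8 in WT, the Gapdh control 90834.5 to 111665.4 against 57478.6 to 60585.3, and the added cre spike, which carries no liver RNA, 99988.2 to 137425.2 against 76116.1 to 107568.7, the last with overlap. The bioC spike read 5542 to 11654.5 against 6146.5 to 10735.4, and the Actb 3' to 5' ratio, a sign of RNA integrity, was 1.29 to 1.8 in 4L and 1.74 to 2.2 in WT. The median signal was 184.5 to 309.2 in 4L and 209.7 to 248.9 in WT, with the lowest medians (184.5 and 191) on the 18-week 4L arrays. Over the 15 hepatocyte markers measured, none of which was called by limma (8 had an unadjusted p under 0.05), the median log2 difference (4L minus WT) was 0.52 as deposited and 0.11 after quantile normalization, and over the 21 acute phase genes it was 0.52 and 0.00. The WT pools differed among themselves in female-biased liver genes, since 14 of 17 had a range of at least 4-fold over the 3 WT arrays, against 2172 of all 18193 genes. Over the 6 4L arrays 9 of 14 male-biased and 10 of 17 female-biased genes had such a range, against 6343 of all 18193. The part of these features in the differences below was not tested.

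Few genes separated adult 4L from WT liver by the criteria used here, an adjusted p of at most 0.01 and a difference of at least 1.8-fold. They included a cytochrome P450, Cyp2c37, and the lymphoid cytokine Ltb on the higher side, and the lysophospholipase gene Gdpd3, the glutathione transferase Gstp3 and Cyp2c39 on the lower side. Of 45037 probe sets 131 (0.291%) were called by limma with Benjamini-Hochberg adjustment, 78 higher (0.173%) and 53 lower (0.118%) in 4L. With 1 probe set per gene, the one with the brightest mean signal over the liver arrays, 53 of 18193 genes (0.291%) were called, 33 higher (0.181%) and 20 lower (0.11%). An unadjusted p under 0.05 was reached by 9382 probe sets, and the median log2 difference over all probe sets was 0.06. With 1 probe set per gene 4390 of 18193 genes reached it, the background for such counts in the gene lists. The shares of genes called, 0.181% higher and 0.11% lower, are the background for counts of called list members. The 6 4L arrays lay wholly above or below the 3 WT arrays for 130 of the 131 called probe sets, beside 6279 (13.9%) of all probe sets. The exception was a probe set of Pip5k1a, a phosphoinositide kinase, whose log2 difference was -2.56 at 12 weeks, -2.59 at 28 weeks and -0.05 at 18 weeks, and whose call held in 1 of the 9 fits that left out 1 array.

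**Figure D1:**
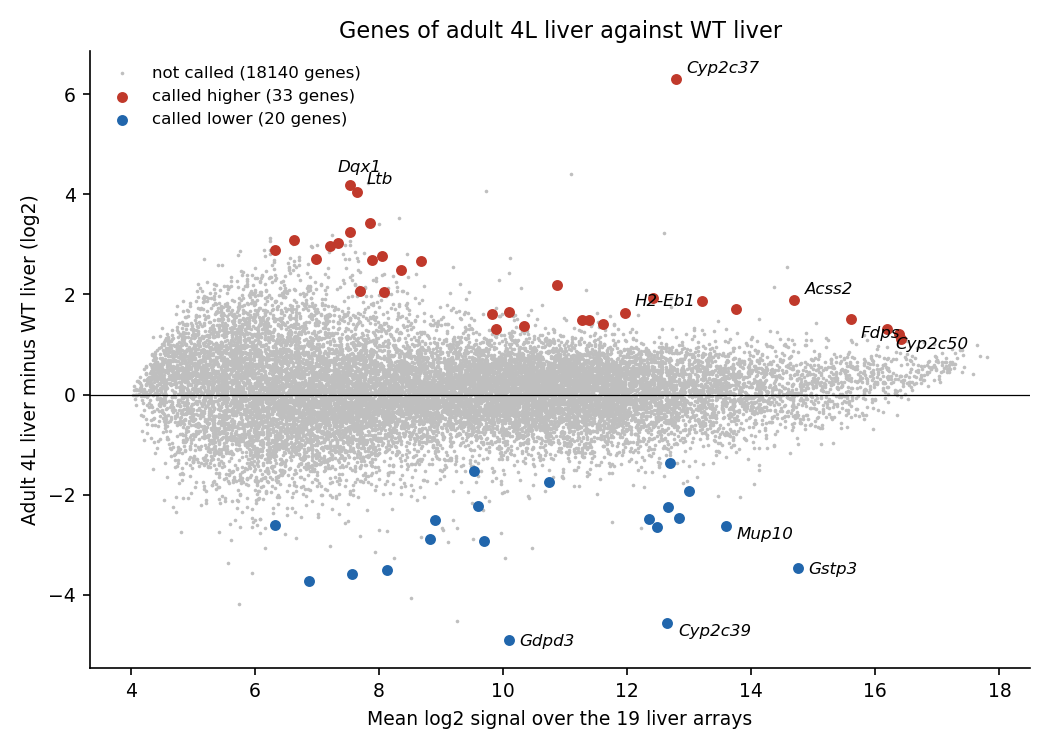
Difference between adult 4L and WT liver for 18193 genes, each by its brightest probe set. The horizontal axis is the mean log2 signal over the 19 liver arrays and the vertical axis the log2 difference, 4L minus WT; red points are the 33 genes called higher, blue the 20 called lower and grey the 18140 not called. Cyp2c37 lies highest at 6.31 and Gdpd3 lowest at -4.90.

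The number of calls moved with the arrays and the scaling. Quantile normalization gave 116 (56 higher and 60 lower) and centring on each array's median 106 (43 higher and 63 lower), so that the larger side depended on the scaling. Leaving out 1 of the 9 arrays in turn gave 31 to 109 calls, the fewest without WT replicate 1 (31), replicate 3 (36) or replicate 2 (40). It was 70 or 58 without replicate 1 or 2 of 18 weeks, 78 or 61 without replicate 1 or 2 of 28 weeks, and 73 or 109 without replicate 1 or 2 of 12 weeks. Leaving out both 18-week arrays, a choice made after the data were seen, gave 52. The direction of none of the 131 was turned by these settings, and 20 probe sets were called whichever array was left out. The 20 hold 14 probe sets described below, of Cyp2c37, Arhgef19, 4930562C15Rik, Marco, Arhgap26, Shroom3, Pfkfb3 and Hps1 higher in 4L and Gdpd3, Psmd6, Hsd17b13, Gstp3, Cyp2d13 and Fam25c lower. A further 4, picked out after their values were seen, were Abcf1 (3.11), Wwc2 (3.5), Plod1 (3.64) and Smad7 (-1.86, on a probe set that can pick up related sequences). The other two carry no single gene name. For every other gene named as called, the number of these 9 fits that kept the call is given.

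Genes of B cells and of antigen presentation were among the higher calls. B cells make antibody and present antigen on MHC class II molecules, whereas MHC class I is carried by nearly all cells. Of 15 B and plasma cell genes measured 3 were called higher and none lower. Over all 18193 genes 33 (0.181%) were called higher and 20 (0.11%) lower. The median log2 difference of the list was 0.72, beside 0.10 over all genes. The MHC class II list gave 1 of 11 (median 0.63) and the MHC class I list 1 of 14 (median 0.55). No gene of 19 in the T and NK cell list was called by limma, 4 had an unadjusted p under 0.05, and the median was 0.09. The summed signal of the B and plasma cell list was 56100 to 87700 in 4L and 58100 to 66600 in WT, so the list as a whole overlapped between the groups. Its defining surface marker Ms4a1 (CD20) had a log2 difference of 0.01 and the plasma cell gene Jchain -0.01, both far from the threshold (adjusted p = 0.99 for each).

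Ltb, the beta chain of lymphotoxin, which organises lymphoid tissue, had signals of 8.7, 31.8 and 24.6 in the 3 WT pools and of 262.3 at the lowest, 374.2 at the median and 608.4 at the highest in 4L liver. Every 4L array lay far above the brightest WT array, and the first WT value lay under the floor of 16 set before the log2 transform. The log2 difference was 4.04 (SE 0.43, limma adjusted p = 0.0012), a 16.5-fold difference, and the call was lost only without WT replicate 1, where the difference was 3.78. Fcmr, the receptor for the Fc part of IgM, read 87.5, 80.4 and 123.7 in WT and 220.3, 399.9 and 630.9 (lowest, median and highest) in 4L. Its log2 difference was 2.05 (SE 0.31, adjusted p = 0.0096) and the call held in 1 of the 9 leave-one-out fits. Ighm, the heavy chain of IgM, read 599.6, 502.1 and 482 in WT and 939.8, 1250 and 2313 in 4L. All 4L arrays lay above WT, by 0.86 at 12, 1.25 at 18 and 1.83 at 28 weeks on the log2 scale, yet the call (1.32, SE 0.20, adjusted p = 0.0097) held in none of the 9. The other probe sets of Ighm were split and none was called. Some had log2 differences between -0.98 and -0.01, and the rest stood at 0.09, 0.46, 0.80, 0.86, 0.91 and 1.72. The B cell receptor chains Cd79a and Cd79b had differences of 1.97 (adjusted p = 0.065) and 1.64 (adjusted p = 0.043) and were not called.

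H2-Eb1, a beta chain of MHC class II, read 2092, 2354 and 2230 in WT and 4946, 6773 and 10630 in 4L. The WT pools were close to each other and every 4L array lay above them. The log2 difference was 1.64 (SE 0.21, adjusted p = 0.0033), or 3.12-fold. The call was kept in 5 of 9 fits and lost without replicate 2 of 18 weeks (1.63) or without any 1 WT array (1.60, 1.68 and 1.64). H2-Aa, the alpha chain of another class II molecule, was called on 1 of its probe sets, at 2022, 1885 and 1359 in WT against 3575, 4674 and 7980 in 4L (1.53, SE 0.22, adjusted p = 0.0079, 0 of 9 fits). Its remaining probe sets had differences of 0.95, 0.80 and 0.11 and were not called, and the called one can pick up related sequences. Cd74, the chain that escorts class II molecules, stood at 0.79 (adjusted p = 0.058) and H2-Ab1 at 0.63 (adjusted p = 0.088). For class I, H2-K1 read 53040, 49970 and 54150 in WT and 99690, 109600 and 142600 in 4L (1.12, SE 0.17, adjusted p = 0.0096, 0 of 9 fits). After quantile normalization the H2-K1 difference was 0.90 and no longer called, and its 3 other probe sets stood at 0.55, 0.58 and 0.32 without a call. A probe set that the annotation shares between H2-K1 and another class I gene was called lower, at 139.6 to 479.2 in 4L and 968.1 to 1101 in WT (-1.95, adjusted p = 0.005, 3 of 9 fits). The peptide transporter Tap1 differed by 1.49 (adjusted p = 0.036). The MHC genes are polymorphic between mouse strains, and strain differed between the groups.

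Promoters of class II genes share a short reverse CCAAT element, the Y box, bound by the factor NF-Y. The letters CTGATTGG were searched on both strands of the 250 bases before each gene's start in the RefSeq annotation (GRCm38.p6). They were found in 4 of 7 class II promoters with an entry (57.1%) and 3 of 11 class I promoters (27.3%), beside 1198 of all 27025 (4.43%). The whole windows of the 2 called class II genes and 28-base stretches of the remaining 2 matches follow, in the direction of the gene and with the matched letters in capitals.
H2-Eb1, chr17:34305617-34305866, plus strand: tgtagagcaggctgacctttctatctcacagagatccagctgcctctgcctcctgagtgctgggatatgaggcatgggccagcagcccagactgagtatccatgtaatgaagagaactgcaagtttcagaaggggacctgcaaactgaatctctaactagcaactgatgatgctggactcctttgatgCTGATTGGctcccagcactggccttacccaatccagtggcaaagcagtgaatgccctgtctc
H2-Aa, chr17:34287824-34288073, minus strand: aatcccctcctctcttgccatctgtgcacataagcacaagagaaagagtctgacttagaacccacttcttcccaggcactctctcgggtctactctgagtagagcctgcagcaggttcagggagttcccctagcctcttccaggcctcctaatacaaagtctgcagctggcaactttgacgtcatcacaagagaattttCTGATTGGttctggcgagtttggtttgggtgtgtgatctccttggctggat
H2-Eb2, chr17:34325562-34325589, plus strand: ctcttggctgCTGATTGGttcttcagca
H2-Oa, chr17:34092323-34092350, plus strand: gagaactgctCTGATTGGctgcttaccg

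In H2-Eb1 the capitals lay 62 to 55 bases before the start, in H2-Aa 51 to 44, in H2-Oa 46 to 39 and in H2-Eb2 103 to 96. Of these genes H2-Oa had a log2 difference of 2.24 (adjusted p = 0.11) and H2-Eb2 of -0.25 (adjusted p = 0.87), neither called. A match describes the letters in the reference sequence, and binding was not measured.

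Some genes with a part in macrophages were called. By its brightest probe set no member of the 24-gene macrophage and Kupffer cell list was called, and the list was not tested as a set. The scavenger receptor Marco, which marks a subset of tissue macrophages including Kupffer cells, read 64.6, 59.2 and 117.6 in WT and 535.1, 831.9 and 1163 in 4L on its called probe set. The groups were separated on every array, by a log2 difference of 3.39 (SE 0.34, adjusted p = 0.00095), or 10.5-fold, in all 9 leave-one-out fits. A second, brighter Marco probe set differed by 1.40 (adjusted p = 0.12) and was not called. Csf1, the growth factor of macrophages, read 326.2, 388.8 and 400.8 in WT and 998.9, 1169 and 1337 in 4L. Its difference was 1.65 (SE 0.22, adjusted p = 0.0052), or 3.14-fold, and the call held in 1 of 9 fits. The other Csf1 probe sets stood at 0.82, 1.5 and 0.45 without a call. Lgals1, a galactoside-binding lectin made by many stromal and immune cells, rose from 3502, 3645 and 3370 to between 10240 and 20150 with a median of 11820 (1.86, SE 0.29, adjusted p = 0.0099, 1 of 9 fits).

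The general macrophage markers did not pass. Cd68, a glycoprotein of macrophage lysosomes, read 940.6, 836.9 and 979.3 in WT and 1695, 2523 and 3412 in 4L, so that the groups did not overlap, with a difference of 1.44 (SE 0.24, adjusted p = 0.014). Adgre1 (F4/80), a surface marker of mouse macrophages, read 1852 to 2216 in WT and 2720 to 3403 in 4L (0.50, SE 0.17, adjusted p = 0.12). Among the 24 macrophage and Kupffer cell genes none was called by its brightest probe set. A difference above 0 was found for 20, an unadjusted p under 0.05 for 13, and the median was 0.48. Over all 18193 genes these values were 10199, 4390 and 0.10. Their summed signal was 86600 to 125000 in 4L and 79100 to 80900 in WT. The scavenger receptor Msr1 stood lower, at 395.2 to 1218 against 1869 to 2021 (-1.25, adjusted p = 0.049), and the fatty acid transporter Cd36 higher, at 2549 to 4745 against 509.7 to 1290 (2.08, adjusted p = 0.021), neither called. Of the 20 genes measured on the study's macrophage activation list for 4L liver 4 were called, all higher, with a median of 1.04. Over all 18193 genes 33 (0.181%) were called higher and the median was 0.10. That list was chosen on these samples and is not independent evidence of its direction. Coro1a, an actin-binding protein of leukocytes, and Pltp, which transfers phospholipid between lipoproteins, were called on 1 probe set each (1.57, adjusted p = 0.0066, 1 of 9 fits, and 1.70, adjusted p = 0.0052, 2 of 9 fits).

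The 9V/null livers were read against the same 3 WT arrays, so the values of the lines are given side by side. In adult 9V/null liver the Actb control read 107619.7 to 162909.2, against 53552.7 to 71083.8 in WT. The Gapdh control read 82222.3 to 113882.3 against 57478.6 to 60585.3, so both lines stood above WT in these controls. In 9V/null 47 probe sets (0.104%) were called against WT, 38 higher (0.0844%) and 9 lower (0.02%). Over the 78 probe sets called higher in 4L the median log2 difference from WT was 2.34 in 4L and 1.5 in 9V/null, and over the 53 called lower it was -2.24 and -0.53. Csf1 was called in both (1.65 in 4L and 1.89 in 9V/null), as were Ltb (4.04 and 3.42), Marco (3.39 and 2.62) and Shroom3, which encodes an actin-binding scaffold (3.93 and 4.16). Marco and Shroom3 are given here by their called probe sets. Dqx1, a helicase-like gene, was 4.19 and 3.61, with signals of 18.3, 21.9 and 18.3 in WT and 299.4 to 427.1 in 4L. Its 4L call was lost without any 1 WT array (4.15, 4.28 and 4.15). Another Dqx1 probe set stood at 0.75 in 4L against WT and was not called.

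**Figure D2:**
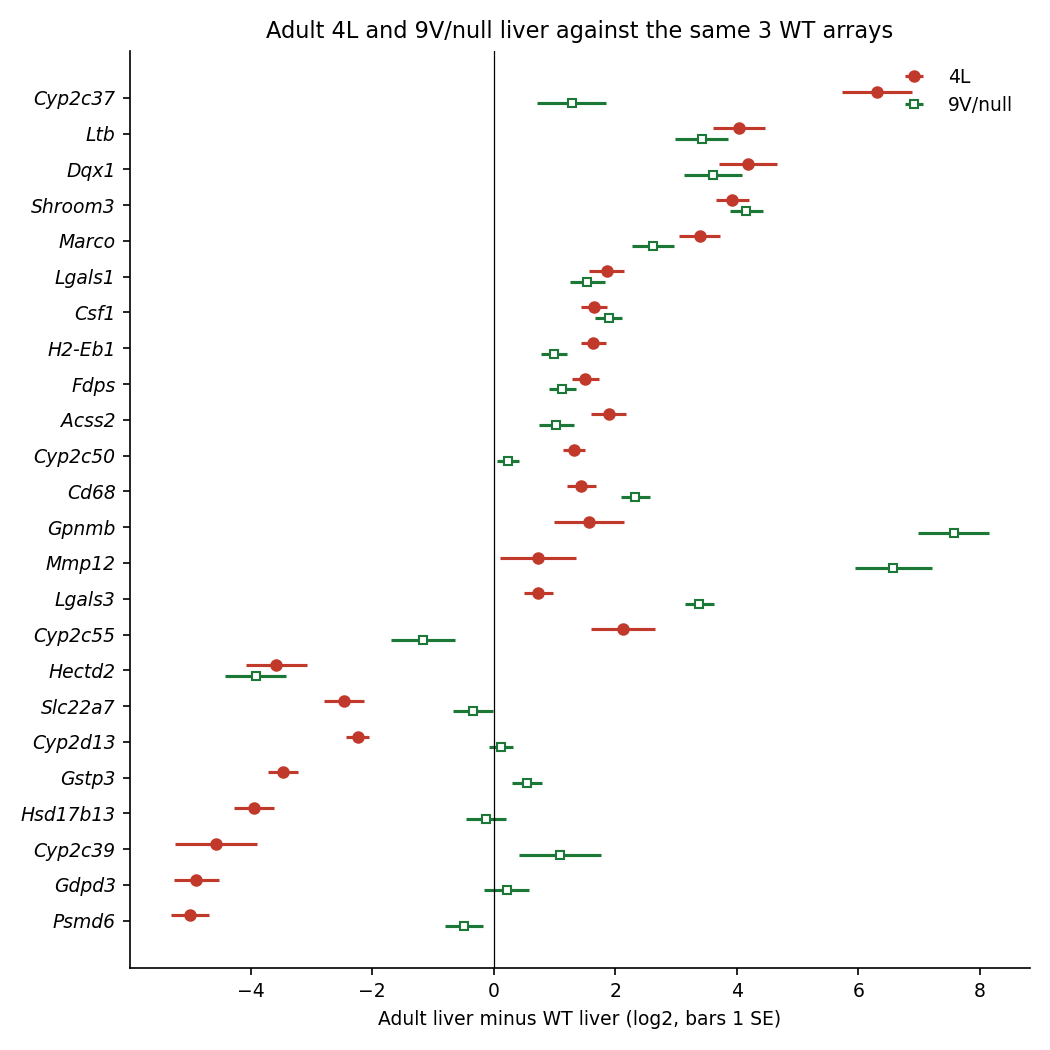
Liver log2 difference from the same 3 WT arrays for 24 genes. Filled red points are adult 4L and open green points adult 9V/null, with bars of 1 SE; Gpnmb, Mmp12 and Lgals3 lie far to the right in 9V/null alone, and Cyp2c37, Gstp3, Cyp2c39 and Gdpd3 stand far from 0 in 4L while in 9V/null they lie between 0.21 and 1.28.

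Genes of lipid-laden macrophages set the lines apart. Gpnmb, a glycoprotein abundant in Gaucher cells, read 24.6, 44.7 and 47.2 in WT, 45.9, 86.45 and 477.4 in 4L and 5172 to 9108 in 9V/null. The 4L difference from WT was 1.57 (SE 0.58, adjusted p = 0.15), whereas 4L was lower than 9V/null by a log2 difference of -6.0 (adjusted p = 1e-04). Mmp12, a macrophage elastase, stood at 13.8 to 33.8 in WT, 18.4 to 109.8 in 4L and 865.6 to 3357 in 9V/null, with a line difference of -5.85 (adjusted p = 0.00024). Lgals3, a lectin of activated macrophages, stood at 996.3 to 1403, 987.5 to 3057 and 9568 to 17140 (line difference -2.65, adjusted p = 7.8e-05). None of the 14 genes of this list was called by limma in 4L against WT (6 had an unadjusted p under 0.05), and 3 were called lower in 4L than in 9V/null. In the comparison of 4L with 9V/null 60 probe sets (0.133%) were called, 15 higher (0.0333%) and 45 lower (0.0999%) in 4L. It carries the same strain difference as the comparison with WT. Cd68 ran the same way without a call, at 1695 to 3412 in 4L and 2806 to 6573 in 9V/null (-0.89, adjusted p = 0.11).

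The enzymes of cholesterol synthesis stood higher in 4L liver, though only 1 was called. The pathway turns acetyl-CoA through mevalonate and squalene into cholesterol and is switched on by the transcription factor encoded by Srebf2 when sterols run low. All 17 genes measured had a log2 difference above 0, from 0.01 (Hsd17b7) to 1.52 (Fdft1), and 13 had an unadjusted p under 0.05, beside 4390 of all 18193 genes. The median was 0.79 beside 0.10 over all genes, and 0.81 after quantile normalization and 0.72 after median centring. Fdps, which makes farnesyl pyrophosphate, rose from 22520, 21320 and 23520 in WT to 54930, 60420 and 76440 in 4L. Its difference was 1.51 (SE 0.22, adjusted p = 0.0076), or 2.85-fold, with 1.43 to 1.59 in the leave-one-out fits, none of which kept the call. A second Fdps probe set had a difference of -0.33, but its mean log2 signal of 4.13 lay near the floor, so its direction carries little weight. Fdft1, the squalene synthase, read 6967 to 8986 in WT and 15220 to 34000 in 4L (1.52, adjusted p = 0.015). Dhcr7, the enzyme of the final step, differed by 1.31 (adjusted p = 0.023), Sqle, the squalene epoxidase, by 1.30 (adjusted p = 0.034) and Srebf2 by 1.20 (adjusted p = 0.075). The number of list members called ran from 0 to 6 over the alternatives. Fdps is also the one called gene among 37 measured near the mutated gene on chromosome 3, where it is the 6th measured gene before it.

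The summed signal of the cholesterol list was 419000 to 536000 in 4L and 257000 to 276000 in WT. The median difference of the list between 4L and 9V/null was 0.23, with Fdps at 0.38. In 9V/null Fdps differed from WT by 1.13 (adjusted p = 0.026). In 4L lung the median of the list was 0.37. Among 16 genes of fatty acid synthesis Acss2, which makes acetyl-CoA from acetate, was called, at 12050, 8083 and 15020 in WT and 34490, 38310 and 57630 in 4L (1.89, SE 0.29, adjusted p = 0.0097, 0 of 9 fits). The other Acss2 probe sets stood at 0.86 and 1.17 without a call. The median of the fatty acid synthesis list was 0.52. Scd1, a fatty acid desaturase, read 63840 to 81270 against 123200 to 161900 (0.93, adjusted p = 0.022, and 0.60 after quantile normalization), and Fasn, the fatty acid synthase, differed by 1.08 with an SE of 0.61 (adjusted p = 0.34). No gene of 11 in the list of cholesterol uptake and control was called by limma (4 had an unadjusted p under 0.05), and its median was 0.23.

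The letters CTGATTGG, which also occur beside sterol response elements in promoters of this pathway, were present in 6 of 14 cholesterol synthesis promoters with an entry (42.9%) and in 1 of 13 of fatty acid synthesis (7.69%), beside the 4.43% of all promoters. The 6 matches are shown with the letters in capitals, in the direction of each gene (GRCm38.p6), so that their flanks can be compared.
Mvk, chr5:114444242-114444268, plus strand: ctccagctctCTGATTGGcctcaggaa
Idi1, chr13:8885548-8885575, plus strand: ttgcctccagCTGATTGGcgagcccggg
Lss, chr10:76531530-76531557, plus strand: tggtgatgctCTGATTGGccgagctcgc
Tm7sf2, chr19:6067883-6067910, minus strand: cctcccagcgCTGATTGGctactgtgct
Ebp, chrX:8193553-8193580, minus strand: gatccctgtaCTGATTGGttcgtcagat
Sc5d, chr9:42264310-42264337, minus strand: gcgccggctgCTGATTGGccggctgcct

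The match lay nearest the start in Mvk, which encodes mevalonate kinase (17 to 10 bases before it), and farthest in Lss, the lanosterol synthase (65 to 58). The log2 differences of these 6 genes ran from 0.25 for Idi1 through 0.67 for Ebp, 0.74 for Sc5d, 0.75 for Tm7sf2 and 0.95 for Lss to 1.16 for Mvk, and none of the 6 was called. Fdps has no promoter shown.

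Cytochrome P450 genes of the Cyp2c family, which oxidise drugs, steroids and fatty acids, differed in both directions. Cyp2c37 read 277.7, 1408 and 1525 in WT and 57850, 66300 and 79400 in 4L. The dimmest 4L array lay far above the brightest WT array, and WT replicate 1 lay well below the other WT pools. The log2 difference was 6.31 (SE 0.57, adjusted p = 0.00051), or 79.5-fold, it was called in all 9 fits (5.51 without WT replicate 1), and it was 6.46 at 12, 6.25 at 18 and 6.23 at 28 weeks. In 9V/null liver Cyp2c37 read 1132 to 2821, a difference from WT of 1.28 (adjusted p = 0.22), and 4L exceeded 9V/null by 5.03 (adjusted p = 0.00032). Cyp2c50 read 50210, 42480 and 49170 in WT and 103600, 118000 and 130700 in 4L (1.32, SE 0.18, adjusted p = 0.0066, 0 of 9 fits). After quantile normalization its difference was 1.14 and not called, while it was called against 9V/null (1.09, adjusted p = 0.0072). Cyp2c54 differed by 1.20 (adjusted p = 0.012) and Cyp2c55 by 2.13 (adjusted p = 0.046), neither called.

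Cyp2c39 ran the other way, at 4939, 44320 and 36130 in WT and 516.2, 800 and 1654 in 4L. WT replicate 1 lay far below the other WT pools, yet the brightest 4L array stayed below the dimmest of them. The difference was -4.57 (SE 0.67, adjusted p = 0.0084), and of the 9 fits only the one without WT replicate 1 kept the call (-5.58, against -3.99 without replicate 2 and -4.14 without replicate 3). In 9V/null it read 18430 to 58570, and 4L was lower by a log2 difference of -5.66 (adjusted p = 0.00047). Cyp2c39 is on the female-biased list, in which WT pools differed among themselves. Of 22 Cyp2 genes 2 were called higher and 1 lower, with a median of 0.30 as deposited and 0.05 after quantile normalization. Of all genes 0.181% were called higher and 0.11% lower. The Cyp2c genes are near copies of each other, and how far their probe sets share transcripts was not tested.

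Gstp3, a glutathione transferase, fell from 62770, 61380 and 63100 in WT to 4101, 5899 and 7867 in 4L. The WT pools lay close together and every 4L array lay far below them. The difference was -3.47 (SE 0.25, adjusted p = 0.00011), or 11.1-fold, in all 9 fits. In 9V/null it read 79730 to 105000, so that 4L differed from it by -4.02 (adjusted p = 5.8e-06). It was the one gene called among 21 of the glutathione and Nrf2 list, whose median was 0.30. Gstp1, a close relative, differed by 0.58 (adjusted p = 0.16).

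Further genes were called lower in 4L. The hepatocyte marker list did not fall, since 13 of its 15 genes had a log2 difference above 0. Its median was 0.52 as deposited and 0.11 after quantile normalization. Slc22a7, a transporter of organic anions, read 19880, 8570 and 16490 in WT and 1606, 2450 and 4312 in 4L (-2.47, SE 0.33, adjusted p = 0.0057, 2 of 9 fits), and it was called against 9V/null too (-2.13). Cyp2d13, another P450 gene, fell from 13990, 10460 and 12360 to 1887, 2725 and 3166 (-2.24, SE 0.19, adjusted p = 0.00046), in all 9 fits, and a second probe set fell by 1.89. Both genes stood near WT in 9V/null, at -0.34 and 0.12. Mup10, a major urinary protein, read 39290, 44390 and 44270 in WT and 2715, 7730 and 11980 in 4L (-2.63, SE 0.39, adjusted p = 0.0091, 2 of 9 fits). The urinary protein genes are near-identical copies, so the value may be shared among them. The sex of the pooled mice is not given, and its part in the Mup10 value was not tested. Fam25c, a gene of unknown function, fell from 7768, 16180 and 12050 to 1394, 1734 and 2949 (-2.64, SE 0.27, adjusted p = 0.001), in all 9 fits, and was at 0.00 in 9V/null.

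**Figure D3:**
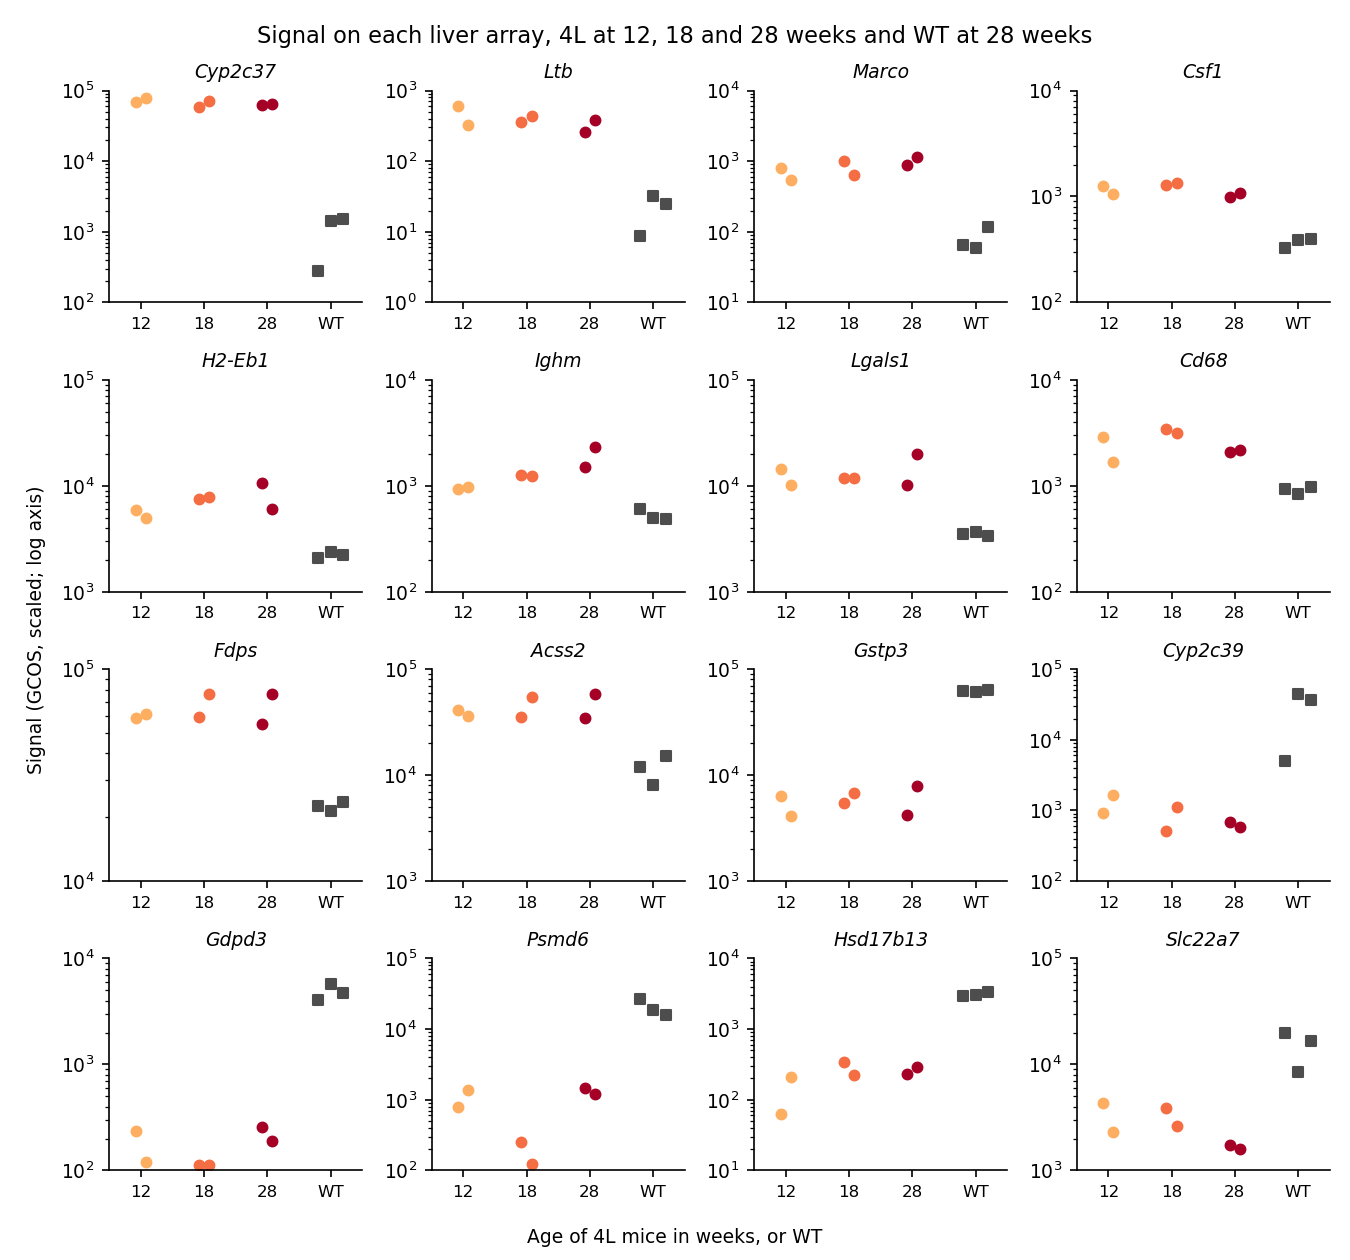
Signal on each array (log axis) for 16 genes, with circles for the 6 adult 4L arrays at 12, 18 and 28 weeks and squares for the 3 WT arrays. Marco, Psmd6 and Hsd17b13 are drawn by their called probe set. The 4L and WT symbols do not overlap in any of the 16 panels, and some of these genes were named by a rule that required this. Of the 131 called probe sets 130 did not overlap, beside 6279 (13.9%) of all probe sets.

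Some calls rested on 1 of several probe sets of a gene. Hsd17b13, a protein of hepatocyte lipid droplets, fell from 2912, 3017 and 3375 to 62.3, 228.9 and 343.4 on its called probe set (-3.94, SE 0.33, adjusted p = 0.00038, 9 of 9 fits), while its brighter probe set had a difference of 0.83 (adjusted p = 0.044). Psmd6, a subunit of the proteasome cap, fell from 27030, 18540 and 15940 to 122.5, 1003 and 1462 (-5.00, SE 0.31, adjusted p = 5.7e-05, 9 of 9), while its brighter probe set was at -0.10 (adjusted p = 0.78). Arhgap26, a GTPase-activating protein, rose from 154, 168.6 and 66.5 to 1435, 3743 and 5554 (4.73, SE 0.39, adjusted p = 0.00034, 9 of 9), while its remaining probe sets were at 0.14, 0.22 and -0.17. In 9V/null, which shares the strain of the WT mice, these called probe sets stood at -0.13, -0.49 and 0.50. Pfkfb3, an enzyme that promotes glycolysis, was called on 1 probe set (225.6 to 811.3 in 4L and 23.4 to 41.1 in WT, 3.75, SE 0.35, adjusted p = 0.00057, 9 of 9) and stood at 0.51 on the other. Mapkapk3, a stress-activated kinase, was called on 1 (272.9 to 591.7 against 14.4 to 37.8, 4.01, SE 0.45, adjusted p = 0.0015) and stood at 0.92 on the other, and lost the call without WT replicate 1 (4.05) or 3 (3.68). The called probe set of Shroom3, at 30.5 to 39.7 in WT and 408 to 663.2 in 4L (3.93, SE 0.27, adjusted p = 0.00011, 9 of 9), was called in 9V/null as well. Ces1d, a carboxylesterase, was called lower on 1 probe set (-2.19, adjusted p = 0.0097, 0 of 9) and stood at -0.49 and 0.28 on the others. Such a split between probe sets of 1 gene limits what can be said of the gene's total RNA.

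Gdpd3, a lysophospholipase D, had the largest fall among the called genes read by their brightest probe set. It read 4079, 5695 and 4725 in WT and 111.6, 154.7 and 255.3 in 4L, with every 4L array far below every WT array. The difference was -4.90 (SE 0.37, adjusted p = 0.00018), or 29.8-fold, in all 9 fits. In 9V/null liver it read 4115 to 7483 and 4L differed from it by -5.11 (adjusted p = 1.5e-05). Lung showed a like value, -4.95, at 117.6 to 522.3 in 4L and 8391 to 9206 in WT lung.

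Several more genes were called in 4L. Pik3ap1, an adaptor of phosphoinositide 3-kinase in B cells and macrophages, read 7869 to 11410 in WT and 1353 to 2231 in 4L (-2.49, SE 0.27, adjusted p = 0.0012), and lost the call without WT replicate 1 (-2.47) or 3 (-2.36). In 9V/null it differed from WT by 0.61 (adjusted p = 0.22). The log2 difference of 4L from 9V/null was -3.09, and a second, dimmer probe set stood at 1.42 against WT (adjusted p = 0.018). Tmem87a, a Golgi membrane protein, read 563.4 to 671.9 in WT and 18.6 to 287 in 4L (-3.51, SE 0.39, adjusted p = 0.0015) and lost the call without any 1 WT array (-3.49, -3.46 and -3.59), with 0.48 in 9V/null. Mme (neprilysin), a peptidase of the cell surface, read 2995, 3691 and 4019 in WT and 224.6, 348.4 and 1560 in 4L, and its difference was -1.48 at 12 weeks, -3.95 at 18 and -3.35 at 28 (all ages -2.93, SE 0.32, adjusted p = 0.0013). Its call was lost without WT replicate 2 (-2.90) or 3 (-2.84), and in 9V/null it differed from WT by -1.43 (adjusted p = 0.038, not called). Another, dimmer Mme probe set stood at -1.15 in 4L against WT and was not called. Hps1, part of a complex that forms lysosome-related organelles, rose on its called probe set from 618.1 to 1045 in WT to 3179 to 5478 in 4L (2.38, SE 0.23, adjusted p = 0.00068, 9 of 9), and exceeded 9V/null by 1.62. That probe set can pick up related sequences. The dimmer probe sets of Hps1 stood at 0.31, 2.33 and 0.39 without a call. Ifi202b, an interferon-inducible DNA sensor that varies between mouse strains, read 751.9, 388.7 and 380.4 in WT and 4.6 to 99.9 in 4L (-3.73, SE 0.54, adjusted p = 0.0078, 0 of 9 fits). The dimmest of its 4L arrays lay under the floor, and the 9V/null difference was -1.11 (adjusted p = 0.26).

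The remaining genes of the naming rule were mostly dim in WT. Higher in 4L were Vps37d, a subunit of the endosomal sorting complex ESCRT (3.42, 7 of 9 fits), Phc1, a Polycomb protein (2.68, 7 of 9), Arhgef19, a guanine nucleotide exchange factor (2.18, 9 of 9), 4930562C15Rik (3.03, 9 of 9), C130050O18Rik (3.24, 1 of 9), Six5, a homeobox gene (2.76, 2 of 9), Htr1a, a serotonin receptor (2.70, 0 of 9), Rnf39 (2.66, 2 of 9), Dock2, a Rac activator of leukocytes (2.48, 0 of 9), Fam50b (2.07, 1 of 9) and B4galnt1, which builds complex gangliosides (1.92, 0 of 9). Lower were Hectd2, a ubiquitin ligase (-3.58, 3 of 9), Psmc3ip, which acts in meiotic recombination (-2.88, 2 of 9), Vmn1r53, a vomeronasal receptor (-2.60, 3 of 9), and Cenpl, a centromere protein (-2.51, 6 of 9). Arhgef19 read 574.4 to 777.5 in WT and 2647 to 3508 in 4L. Without WT replicate 1 or 3 Vps37d stood at 3.45 or 3.30, and without replicate 2 or 3 Phc1 stood at 2.71 or 2.48, in each case without the call. Second probe sets of Htr1a and Hectd2 ran the other way, at -0.60 and 1.01, without a call. Further uncalled probe sets stood at 0.57 and 0.23 for Dock2, 0.39 for 4930562C15Rik, 0.0 for B4galnt1 and -0.35 for Hectd2.

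The fixed lists of lysosome and of GCase pathway and sphingolipid genes held no call against WT. Of 23 genes of the GCase pathway and sphingolipid list 9 had an unadjusted p under 0.05 and none was called by limma, with a median of 0.24. Over all 18193 genes 4390 had such a p and the median was 0.10. Galc, the lysosomal enzyme that degrades galactosylceramide, had the largest difference, 1.66 (adjusted p = 0.058), and was called in 4L lung (3.83). Gba2, a glucosylceramidase outside the lysosome, was called lower in 4L than in 9V/null, at 630.8 to 884.3 against 1184 to 2992 (-1.25, SE 0.15, adjusted p = 0.0032), and stood at -0.82 against WT (adjusted p = 0.037). B4galnt1, a ganglioside enzyme called higher in 4L, is not on this list. Of 20 lysosome genes 8 had an unadjusted p under 0.05 and none was called, with a median of 0.24 and the membrane protein Cln3 at 1.04 (adjusted p = 0.03). Across the alternatives at most 1 gene of the former list and 2 of the latter were called.

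Of the study's IFNg-regulated genes none of 12 was called by limma and 3 had an unadjusted p under 0.05. The neutrophil chemokine Cxcl1 stood lowest at 876.6 to 1841 in 4L and 2003 to 12170 in WT (-1.62, adjusted p = 0.07), and the cytokine gene Ifng itself at -0.53 (adjusted p = 0.75). Of the 11 IL-4-regulated genes measured Ighm alone was called. The chemokines Ccl22 and Ccl17 had differences of 1.82 (adjusted p = 0.13) and 1.44 (adjusted p = 0.14), the IL-1 receptor antagonist Il1rn 1.27 (adjusted p = 0.12) and Il4 itself -0.91 (adjusted p = 0.58). The medians of the lists were 0.17 and 0.73. Both lists come from the study, which drew them from pathway sources and from 9V/null lung of this series, not from the liver arrays compared here. In the list of 30 chemokines and cytokines Csf1 was the one call, and the median was 0.13.

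**Figure D4:**
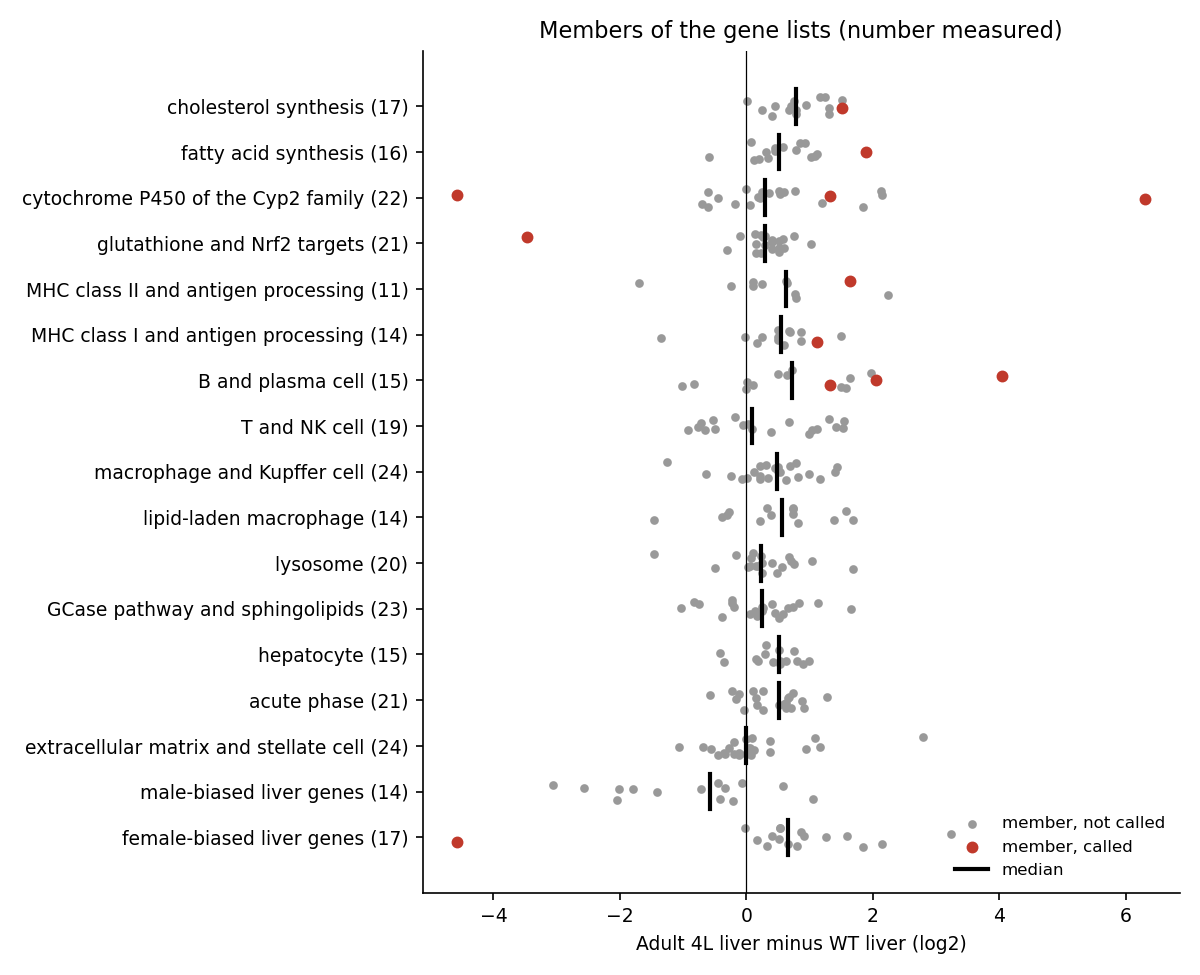
Adult 4L minus WT liver difference (log2) for the measured members of 17 gene lists. Each point is a gene, red where called, and the bar is the list's median; cholesterol synthesis has all its 17 points above 0, and lipid-laden macrophage, lysosome and sphingolipid lists hold no red point.

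The extracellular matrix and stellate cell list gave no call among 24 genes and a median of 0.00, the endothelial list none of 13 (0.33), the monocyte and neutrophil list none of 15 (0.30) and the interferon response list none of 23 (0.54). In limma's test 5 matrix, 3 endothelial, 3 monocyte and neutrophil and 4 interferon genes had an unadjusted p under 0.05. Over all 18193 genes 4390 had such a p. The unfolded protein response and heat shock list had no call among 18 genes (8 with an unadjusted p under 0.05) and a median of -0.33. Of 14 male-biased genes none was called (5 with an unadjusted p under 0.05) and the median was -0.58, and of 17 female-biased genes Cyp2c39 was called and the median was 0.66.

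With each age set against the same WT arrays, 26 probe sets (0.0577%) were called at 12 weeks in 4L, 157 (0.349%) at 18 weeks and 31 (0.0688%) at 28 weeks. Higher and lower in 4L were 15 (0.0333%) and 11 (0.0244%) at 12 weeks, 49 (0.109%) and 108 (0.24%) at 18 weeks, and 18 (0.04%) and 13 (0.0289%) at 28 weeks. The 18-week split was 40 higher and 62 lower after quantile normalization and turned to 47 higher and 43 lower after median centring. At 28 weeks the splits were 14 and 20, and 9 and 15, and at 12 weeks 11 and 12, and 8 and 10. No probe set was called by limma between 28-week and 12-week 4L liver, where 3372 had an unadjusted p under 0.05. All 131 probe sets called over the adult ages had the same sign at each age. Cxcl14, a chemokine of epithelia, differed in size between ages on its called probe set, at 583.8 and 606.1 at 12 weeks, 773.1 and 468.8 at 18 weeks and 76.4 and 27.1 at 28 weeks, against 8.1, 7 and 13.1 in WT. All 3 WT values lay under the floor, so the size of its difference is set by the floor. Its log2 difference was 5.22, 5.23 and 1.51 at these ages, the call over all ages (3.99, SE 0.57, adjusted p = 0.0076) held in 0 of 9 fits, and another Cxcl14 probe set was at -0.07.

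In 4L lung, measured on 6 adult 4L and 4 WT arrays that share no array with liver, 4741 probe sets (10.5%) were called, 2010 higher (4.46%) and 2731 lower (6.06%). Of the 131 liver calls 55 were called in the same direction in lung, 42.0% of the liver calls and 1.16% of the lung calls. Of the 78 higher in liver 30 were called higher in lung and 1 lower, and of the 53 lower 25 were called lower and 1 higher. The lung medians of these sets were 1.02 and -1.41, beside -0.04 over all probe sets. H2-Eb1 (1.64 in liver and 1.95 in lung), Lgals1 (1.86 and 1.71), Marco (3.39 and 2.25), Csf1 (1.65 and 0.89), Gdpd3 (-4.90 and -4.95), Pik3ap1 (-2.49 and -2.30) and Arhgap26 (4.73 and 4.57) were called in both tissues. The lung mice had the same strain difference between 4L and WT. Control signals differed in lung too. The Actb control read 104781.6 to 172557.8 in adult 4L lung and 57192.4 to 65130.4 in WT lung. Gapdh read 38611.2 to 66125.7 against 18915.3 to 22553, and the cre spike 64042.3 to 103889.5 against 43311.7 to 45034.8. The bioDn spike read 20041.3 to 37947.8 against 11122.8 to 13038, while the bioC spike overlapped. The part of these features in the shared calls was not tested.

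The difference between the tissues was itself tested in a fit of all 39 arrays, which called 118 probe sets (0.262%), 69 (0.153%) with a higher 4L effect in liver and 49 (0.109%) with a higher one in lung. Quantile normalization gave 242 (96 and 146) and median centring 87 (30 and 57). Among the 131 liver calls 21 were called. Cyp2c37 had a liver effect 5.42 above that in lung (0.89, adjusted p of the difference 0.0037). Gstp3 fell in liver and stood at 0.51 in lung, a difference of -3.99. Ltb rose in both, by 4.04 and 1.29, with the liver effect higher by 2.75, and Shroom3 stood at 3.93 and 0.25, a difference of 3.68. Cd44, a hyaluronan receptor, was called for the difference between tissues (1.41) although it was not called in liver (0.81, adjusted p = 0.086).

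**Figure D5:**
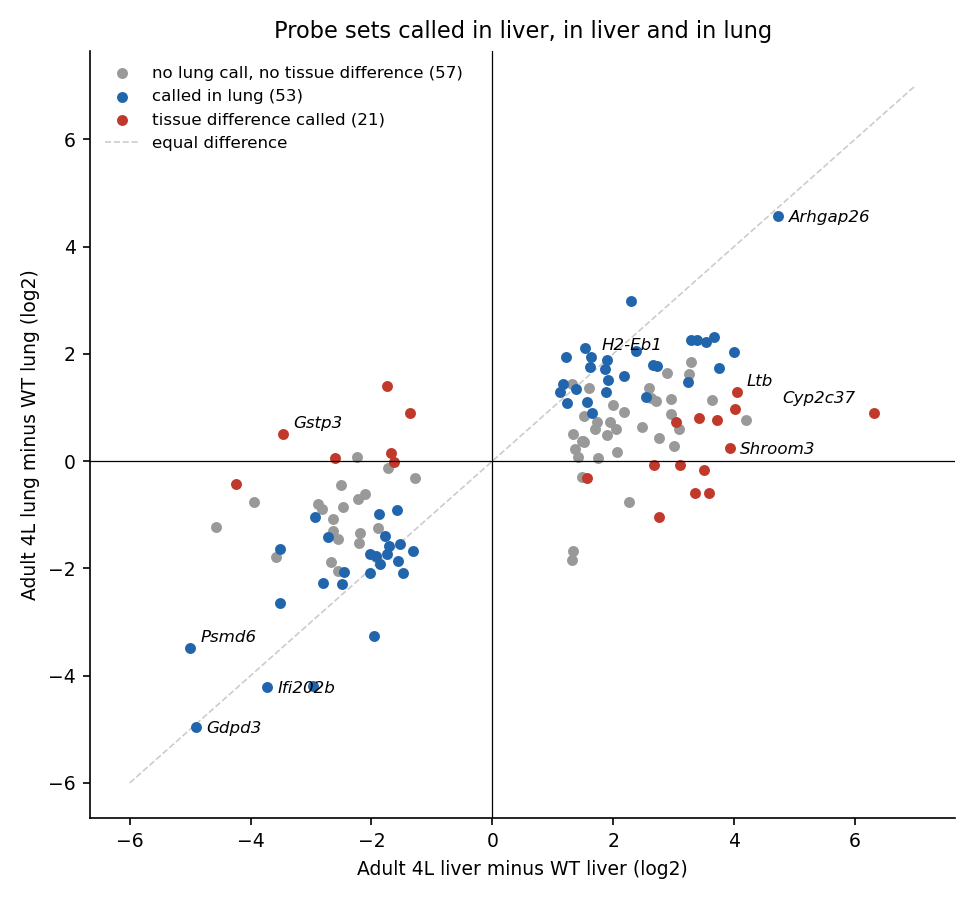
Log2 difference of adult 4L from WT in liver (horizontal) and lung (vertical) for the 131 probe sets called in liver. Red marks the 21 with a called difference between tissues, blue 53 further ones called in lung and grey the remaining 57; the dashed line marks equal differences, near which Gdpd3, Arhgap26 and H2-Eb1 lie, while Cyp2c37 and Gstp3 lie far from it.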

How the data were processed

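The samples were 39 Affymetrix Mouse Genome 430 2.0 arrays in 18 groups, each a pool of RNA from 3 mice. The authors deposited linear signal intensities from GCOS 1.1 (version from the submitters' processing notes), scaled on each array to a common trimmed mean with 2% trimmed at each end. Signal intensities were used as deposited, floored at 16 and transformed to log2, and 64 control probe sets were left out. All 19 liver arrays entered 1 fit of 9 group means in limma 3.58.1 (R 4.3.3; 10 residual degrees of freedom and a prior of 2.11), and adult 4L was the mean of its 12-, 18- and 28-week groups. Benjamini-Hochberg adjustment covered 45037 probe sets, and a call required an adjusted p of at most 0.01 and 1.8-fold, as the study's methods set. The tissue difference came from a fit of all 39 arrays. The number of arrays limits the precision, and p-values measure the spread between pools only.

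Platform annotation gave 34945 probe sets 1 symbol, 932 several and 9160 none, and 34741 symbols were found by gene ID in RefSeq (GRCm38.p6), which also gave the promoter sequences. A gene was read by its probe set with the highest mean log2 signal over the liver arrays, leaving aside those with the suffix x where another existed. Named genes were Cd68, Adgre1, the 15 highest and 15 lowest called genes whose groups did not overlap and whose brighter group reached 200, up to 4 called members per list, called genes near the mutated gene, and the study's IFNg and IL-4 lists, and the rest were chosen after their values were seen. The members and lists were chosen with earlier results of these data known. The mutated gene is not reported here. On simulated data for the adult comparison (45037 probe sets), 3 of 200 features changed by 2-fold were called, 87 of 200 changed by 4-fold, 121 of 200 changed by 8-fold and 2 of 44437 unchanged. Alternatives were quantile normalization, median centring, floors of 64 and 1, a minimum mean signal of 100, a trended robust prior, array weights, the replicate number as a block, an adjusted p of 0.05, other sets of arrays and leaving out each array. Python 3.11.15, pandas 2.3.3, numpy 2.4.6 and matplotlib 3.10.9 made the summaries and plots.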

Additional observations from a re-analysis of the deposited data

Results flagged for a closer look

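The effect of 4L in liver differed from that in lung, by the test of the difference in the fit of all 39 arrays, for 10 of the named genes. On the log2 scale the liver effect was higher for Cyp2c37 (5.42), Shroom3 (3.68), Mapkapk3 (3.03), Phc1 (2.76), Ltb (2.75), Vps37d (2.62), 4930562C15Rik (2.30) and Cd44 (1.41). It was lower for Gstp3 (-3.99) and Vmn1r53 (-2.64). Phc1 stood at 2.68 in liver and -0.08 in lung.

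One of the 6 adult 4L liver arrays lay far below the rest for 3 genes, with a gap to the next array of 0.748 of the range for Six5, 0.728 for Mmp9 and 0.708 for Hsd17b13 on its called probe set, above Dixon's 95% critical value for 6 arrays. Chance flags about 1 in 20 groups, and 82 genes were examined.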

How the results depend on the processing

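The number of calls was more sensitive than the direction of named genes. For adult 4L against WT (131 calls) the count was 616 with a floor of 64, 81 with a floor of 1, 582 with a minimum mean signal of 100, 1398 with a trended robust prior, 708 with array weights, 30 with the replicate block, 1542 at an adjusted p of 0.05, 1886 in the fit of all 39 arrays, 1 on the 9 arrays in 4 groups, 36 on the 9 in 2 groups, 295 with the 4-week arrays added and 52 without the 18-week arrays (chosen after the data were seen; 43 of them among the 131), and 31 to 109 with 1 array left out. At 28 weeks (31 calls) it was 162 with a floor of 64, 19 with a floor of 1, 62 with the minimum signal, 174 with the trended prior, 93 with weights, 0 with the block, 196 at 0.05, 344 in the fit of all arrays and 0 to 27 with 1 array left out. At 12 weeks (26 calls) it was 87, 22, 49, 363, 20, 0, 195 and 808 in the same order, with 18 after median centring and 0 to 27 with 1 array left out. At 18 weeks (157 calls) it was 593, 154, 551, 1376, 654, 4, 1704 and 2002, with 102 after quantile normalization, 90 after median centring and 2 to 62 with 1 array left out. Between 28 and 12 weeks (0 calls) it was 26 with a floor of 64, 5 at 0.05, 24 in the fit of all arrays and 0 to 9 with 1 array left out. For 4L against 9V/null (60 calls) it was 135 with the trended prior, 37 with the block, 152 at 0.05, 227 in the fit of all arrays and 38 to 55 with 1 array left out. For the tissue difference (118 calls) it was 242 after quantile normalization, 486 with a floor of 64, 266 with the minimum signal, 353 with the trended prior, 550 with weights, 43 with the block, 795 at 0.05 and 50 to 330 with 1 array left out, the most without lung 4L replicate 2 of 28 weeks. The cause was not tested.

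The replicate numbers did not pair the samples, since same-numbered arrays correlated by -0.0558 to 0.0309 over 6 pairs of groups. Under the processing alternatives the named genes kept direction and side of the threshold in 881 cases, lost the call in 199 and gained it in 67, and with 1 array left out they kept it in 496 and lost it in 242. The direction turned only on other probe sets of a gene, at -0.60 for Htr1a, 1.01 for Hectd2, 1.42 for Pik3ap1, -0.33 for Fdps, -0.52, -0.52, -0.98 and -0.01 for Ighm, -0.13 for Il1rn, -1.30 for Tap1, -0.69 for Laptm5, -0.89 for Galc, -0.24 for Cln3, -0.17 for Arhgap26, 0.83 for Hsd17b13, -0.07 for Cxcl14 and 0.28 for Ces1d. Signals near the floor have no order.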
